A study of Sus scrofa with 9 samples.

Results

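Translation initiation factors, translation elongation factors and aminoacyl-tRNA synthetases were followed in pig whole blood before and after oral azide. The members were all non-control probes whose array description names, in any letter case, a translation initiation factor, elongation factor 1 or 2, a translation elongation factor or a tRNA synthetase. This wording took 71 of the 43603 probes on the array. By their descriptions, 36 probes name initiation factors, 13 name elongation factors, 21 name tRNA-charging enzymes and 1 names a regulator, the eIF2α kinase EIF2AK3. The wording uses no measured value.

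Male specific-pathogen-free Clawn miniature pigs, a small laboratory breed, were bled before feeding (0 h, no azide given yet) and at 6 h and 24 h after an oral azide dose of 300 µg/kg, with 9 arrays in total, 3 per time. The age is given as 7 months in one label and 7 weeks in another. Azide is toxic through its block of the last enzyme of mitochondrial respiration. Pigs without azide were not bled at the later times, each time lay on its own slide and scan, and the labels do not say whether equal replicate numbers mark 1 animal, so time, slide and dose cannot be told apart and p-values measure only the spread between these samples.

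Protein synthesis runs in steps that these genes serve in turn. Aminoacyl-tRNA synthetases load each tRNA with its amino acid, at the cost of ATP. Initiation factors then bring the small ribosomal subunit, the charged initiator tRNA and the mRNA together: eIF4E binds the cap, eIF4G bridges cap and ribosome, the helicase eIF4A with its helper eIF4B opens the leader, eIF3 holds the subunit, eIF2 carries the initiator tRNA, and eIF5 and eIF5B see it through to subunit joining. Elongation factor eEF1A delivers every later tRNA to the ribosome. Its mRNA, EEF1A1, belongs to the class whose translation is tied to growth signals through an oligopyrimidine start. In blood most of this RNA comes from white cells and from young red cells and platelets that still carry mRNA.

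Each probe is a synthetic 60-base DNA strand, so a value reads one short stretch of a transcript. The following strands matter most for reading the results, because several probes of one gene can be near copies of each other. Of the 8 EEF1A1 probes, 3 tile the same coding stretch, and the capitals mark the 18 bases that all 3 share.
EEF1A1 probe A_72_P221012: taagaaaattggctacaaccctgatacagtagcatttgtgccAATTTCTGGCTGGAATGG
EEF1A1 probe A_72_P092941: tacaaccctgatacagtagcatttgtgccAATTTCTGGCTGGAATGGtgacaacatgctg
EEF1A1 probe A_72_P033081: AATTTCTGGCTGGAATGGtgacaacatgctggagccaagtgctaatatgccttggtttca
The first strand shares 47 bases with the second, and the second shares 31 with the third, so the 3 probes are not independent readings. Of the 3 EIF4A1 probes, 2 overlap by 23 bases, in capitals here.
EIF4A1 probe A_72_P372643: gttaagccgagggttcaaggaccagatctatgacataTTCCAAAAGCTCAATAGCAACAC
EIF4A1 probe A_72_P398168: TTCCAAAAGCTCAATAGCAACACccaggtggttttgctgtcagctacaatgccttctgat
The paralog EIF4A3 is read by a strand from the matching coding stretch. Slid by 3 bases without gaps, it has 32 of 57 bases (56.1%) in common with the first EIF4A1 strand, and capitals mark the bases that match.
EIF4A1 probe A_72_P372643: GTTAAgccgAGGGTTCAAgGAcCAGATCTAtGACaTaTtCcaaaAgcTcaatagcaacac
EIF4A3 probe A_72_P116536: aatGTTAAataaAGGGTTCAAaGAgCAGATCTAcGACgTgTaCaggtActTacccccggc
Mismatches run through the whole overlap. The share of signal that each strand takes from the other paralog was not tested. The remaining strands shown belong to the probes of EIF4G3 and threonyl-tRNA synthetase, whose values come up below.
EIF4G3 probe A_72_P115851: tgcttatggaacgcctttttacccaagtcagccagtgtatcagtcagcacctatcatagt
Threonyl-tRNA synthetase probe A_72_P013806: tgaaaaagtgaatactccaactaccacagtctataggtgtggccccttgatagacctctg

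How securely a probe is named differs among the members. Pig RefSeq accessions name 17 probes, all of which matched the RefSeq gene table with the same symbol: EEF1A1, EIF4A1, EIF4A2, EIF4A3 and EIF4E2. The other names come from the array maker's best protein match of a transcript cluster. The match was a vertebrate protein for 56 probes, RefSeq ones included, and a bacterial, archaeal, fungal, fluke or fly protein for 15, where the matched part covered as little as 3% of that protein. These 15 are called matches here, since their pig gene is not known from the files. The test took the 50 members that cleared background by a wide margin in every replicate of some time: 29 of 36 initiation probes, 10 of 13 elongation probes, 10 of 21 tRNA-charging probes and EIF2AK3. Of the 50, 47 were well above background on all 9 arrays. The 21 probes left out were dim, 15 of them on every array. They include all 7 probes described as mitochondrial (isoleucyl, tyrosyl, tryptophanyl and phenylalanyl synthetases and initiation factor IF-2), the lysyl probe, the probe of eEF1A2, a paralog known from muscle and nerve, and further probes of EIF5, EIF5B, EIF4A2, EIF4G3 and eIF2 gamma.

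Levels below are log2 processed signal minus the 75th percentile of the same array, and differences are log2 differences of group means with limma's standard error (SE, n = 3 per group). A level is compared only within its own probe, since 2 probes differ in brightness for reasons other than RNA amount. Between 39.9% and 56.6% of the spots of an array were well above background, and the 75th percentile itself was 6.82, 6.77 and 7.69 at 24 h, against 6.35, 5.79 and 6.55 before the dose. Within a time, arrays correlated at 0.936 to 0.985. Replicate 3 at 24 h had both the 56.6% and the 7.69, the highest of all arrays. It correlated at 0.940 and 0.946 with the other 24 h arrays, which correlated at 0.985 with each other. The counts of calls depend on a different array. Without replicate 2 of the 6 h group, limma called 2396 of 19780 probes (12.1%) at 6 h against before the dose, in place of 5. Without any other array it called at most 25. Values without that replicate are given below as a sign of this dependence, and since it is picked out by the calls themselves they are no separate evidence. Signal strength also went with the difference at 24 h, where the median over the brightest 1% of tested probes was -0.65 and that over the dimmer 50% was 0.12. Blood cell markers also differed. Summed linear signal of 3 neutrophil markers ranged from 567 to 1587 at 6 h, against 172 to 363 before the dose, that of 5 monocyte markers from 332 to 923, against 117 to 163, and that of 9 T cell markers from 43.4 to 109, against 139 to 166. At 24 h the same sums ranged from 125 to 308, 168 to 398 and 87.3 to 107. No red cell marker of the list has a named probe here. The part of these cell shifts in the values below was not tested, and in whole blood fewer cells of a type and less RNA per cell cannot be told apart.

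No translation factor or tRNA synthetase probe passed an adjusted p of 0.05 in limma with Benjamini-Hochberg adjustment over 19780 probes, at either time. At 6 h against before the dose 0 of 50 members passed, where 0.0253% of all tested probes did, and at 24 h 0 of 50 passed, where 0% did. The smallest adjusted p among members was 0.0797 at 6 h, 0.217 at 24 h and 0.116 for 24 h against 6 h. At an unadjusted p under 0.05, 9 members were lower and 2 higher at 6 h (18% and 4% of members, against 10.9% and 14.7% of all tested probes). At 24 h, 6 members were lower and 0 higher by the same measure (12% and 0%, against 8.56% and 5.32%). Between 24 h and 6 h, 4 members were lower and 3 higher at 24 h (8% and 6%, against 13.6% and 7.97%). Over both directions, 25.5%, 13.9% and 21.6% of all tested probes passed that unadjusted level in the 3 comparisons. The 9 lower members at 6 h include an arginyl probe, the one with adjusted p of 0.0797, and a bacterial glutamyl match. Both entered the test through the other times and were not well above background on every 6 h array. With replicate 2 of the 6 h group left out, 2 members passed at 6 h, EIF4E3 upward and the bacterial IF-2 match downward, and 1 passed at 24 h against 6 h, EIF4G3 downward, where 12.1% and 8.93% of all tested probes passed.

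Set side by side, the 3 classes named for steps of protein synthesis all had more lower than higher values at 6 h. The value was lower at 6 h than before the dose for 19 of 29 initiation probes, 9 of 10 elongation probes and 7 of 10 tRNA-charging probes, and for 47.4% of all tested probes. Classes follow the descriptions, so initiation also counts the eIF2C and EIF4A3 probes, and tRNA charging a prolyl-associated match. These do not serve the step they are counted under, as told below. The tRNA-charging class also holds bacterial matches and the valyl, arginyl and histidyl homolog probes, whose names are known in human for mitochondrial enzymes. Its remaining tested synthetases, asparaginyl, alanyl and threonyl, gave -0.42, 0.25 and 0.71 at 6 h, so they do not share the direction of the class median. The median difference was -0.19 for initiation, -0.16 for elongation and -0.42 for tRNA charging, beside 0.05 over all tested probes. At 24 h against before the dose the medians were -0.13, -0.018 and -0.091 for the same classes, beside -0.011 over all tested probes, and 18 of 29, 5 of 10 and 5 of 10 values were lower, against 50.9% of all. Groups that did not overlap were counted as well. At 6 h, 9 members lay wholly below and 1 wholly above the values before the dose, where 10.6% and 16% of all tested probes did (26.6% in either direction). By class, 5 of 29 initiation probes lay below, 4 of 10 tRNA-charging probes below and 1 above, and 0 of 10 elongation probes in either direction. At 24 h the counts were 14 below and 0 above, where 19% and 7.5% of all did (26.5% in either direction). Between 24 h and 6 h they were 6 below and 5 above, where 16.5% and 10% of all did (26.5% in either direction). In the first 2 of these comparisons the members' upward counts are below the share of all probes, though several members share a gene or bases. Since 8 of the 10 elongation probes read EEF1A1, that class is close to 1 gene.

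How the arrays are scaled moves these medians, so they were also read against the median of all tested probes under the same scaling. Spike-in centring alone moved the median of all probes to 0.27 at 6 h and 0.99 at 24 h. Shifts of whole arrays cancel in that reading, so the percentile, median and spike-in scalings all give the same relative value. At 6 h it was -0.24 for initiation, -0.20 for elongation and -0.47 for tRNA charging. Quantile normalization gave -0.26, -0.42 and -0.49 for the same classes, with the deposited values close to these. Of the scalings, normexp background correction gave the values nearest 0, at -0.14, -0.16 and -0.32. The filter on dim probes moved them more: without it the relative values at 6 h were -0.045, -0.10 and -0.081. At 24 h, with the filter, the relative value of elongation was -0.007, but 0.26 with quantile normalization, 0.25 for the deposited values and 0.36 with normexp. Initiation was at -0.12 and tRNA charging at -0.081, and normexp gave 0.15 and -0.028.

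Single arrays weigh on the class picture as well. The class level of an array is the median, over the probes of the class, of the value minus that probe's own mean. For elongation it was 0.44, -0.095 and 0.086 before the dose, -0.53, 0.36 and -0.25 at 6 h and -0.035, -0.21 and 0.25 at 24 h, so all 3 times overlap widely. Initiation had levels of 0.19, 0.046 and 0.11 before the dose, -0.12, 0.097 and -0.0066 at 6 h and -0.16, -0.057 and 0.0056 at 24 h. The 24 h arrays all lay below those taken before the dose, while the 6 h arrays overlap them through replicate 2. The same median over all tested probes is also apart, by less, at -0.0594, -0.0263 and -0.0739 at 24 h, against -0.0057, 0.0334 and 0.0135 before the dose. For tRNA charging the levels were 0.33, -0.052 and 0.29 before the dose, -0.28, -0.015 and -0.14 at 6 h and 0.024, 0.0023 and -0.016 at 24 h. Here 2 of the 3 arrays before the dose lay above every later array and replicate 2 lay among them. Without replicate 2 of the 6 h group the 6 h medians were -0.27 for initiation, -0.46 for elongation and -0.57 for tRNA charging, and without replicate 1 of that group the first came to -0.0073 and the second to -0.058.

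Among initiation factors, the cap-binding complex gave values in both directions. EIF4E3, a cap-binding relative of eIF4E, read -0.014, -0.059 and 0.11 before the dose, 1.01, 0.11 and 1.23 at 6 h and -0.049, 0.16 and 0.47 at 24 h. Replicates 1 and 3 were high at 6 h, and replicate 2 sat at the level before the dose. The 6 h difference was 0.77 ± 0.33 (adjusted p = 0.175), and 1.11 with adjusted p = 0.0345 without replicate 2 of the 6 h group. EIF4G3, one of the scaffold proteins that join cap and ribosome, read -0.16, 0.94 and 0.14 before the dose, 0.91, 0.27 and 1.60 at 6 h and -0.59, -0.14 and -0.68 at 24 h. The 24 h values lay below all 6 h values, and 1 of them overlapped the values before the dose. Between 24 h and 6 h the difference was -1.40 ± 0.40 (adjusted p = 0.116), which came to -1.73 with adjusted p = 0.0376 without replicate 2 of the 6 h group. The 24 h difference from before the dose was -0.78 ± 0.40 (adjusted p = 0.414).

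The other cap-complex members differed less. EIF4E2, a cap-binding protein known in mammals for repressing translation, was read by 2 probes, the stronger of which had 2.28, 2.21 and 2.25 before the dose, 1.90, 2.31 and 1.96 at 6 h and 1.91, 1.87 and 2.05 at 24 h. Its 24 h values lay below all values before the dose, and replicate 2 at 6 h was the highest of all. The 2 probes differed by -0.19 and -0.31 for 6 h and -0.30 and 0.02 for 24 h, with adjusted p of 0.532 or more. EIF4B, the helper of the eIF4A helicase, was 0.52 ± 0.34 higher at 6 h (adjusted p = 0.355) and its values overlapped at all times. Its name rests on 5% of a rat protein.

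The helicase eIF4A was covered by 10 tested probes of 3 paralogs. EIF4A1, the main helicase of initiation, gave 6 h differences of -0.28, 0.08 and 0.23 and 24 h differences of 0.02, -0.14 and -0.06, where the last 2 values of each come from the overlapping strands printed above. Both strands had their highest value of all 9 arrays in replicate 2 at 6 h. The strongest EIF4A1 probe, which overlaps neither, read 2.54, 2.46 and 2.39 before the dose, 2.08, 2.19 and 2.30 at 6 h and 2.31, 2.32 and 2.81 at 24 h, lowest at 6 h with no overlap. A further probe matched to zebrafish eIF4A isoform 1B lies in the same transcript cluster as that one. It read 5.98, 5.69 and 5.68 before the dose, 5.25, 5.81 and 5.47 at 6 h and 5.48, 5.499 and 5.90 at 24 h, and gave -0.27 and -0.15 with overlapping groups. EIF4A2, a paralog known in mammals for a part in microRNA-guided repression, was read by 4 tested probes. Its probe A_72_P088761 read 5.23, 3.58 and 4.73 before the dose, 3.50, 4.68 and 4.77 at 6 h and 4.74, 4.70 and 5.62 at 24 h. Replicate 2 before the dose and replicate 1 at 6 h were low together, and the other RefSeq probes of EIF4A2 had the same low arrays. Those 3 RefSeq probes gave 6 h differences of -0.19, -0.27 and -0.01 and 24 h differences of 0.51, 0.43 and 0.54, all with adjusted p of 0.655 or more. The fourth, matched to a human EIF4A2 sequence, read 2.31, 1.37 and 1.82 before the dose, 1.16, 0.31 and 1.52 at 6 h and 1.60, 1.54 and 2.05 at 24 h. Its 6 h difference was -0.84 ± 0.37 (adjusted p = 0.19), and unlike the others it was lowest in replicate 2 at 6 h. EIF4A3, which serves the exon junction complex rather than initiation, gave 0.10 and 0.31 at 6 h and -0.01 and 0.39 at 24 h. Its probe A_72_P088651 read 5.43, 5.27 and 5.73 before the dose, 5.43, 5.81 and 5.502 at 6 h and 5.43, 5.48 and 5.499 at 24 h. All 3 times overlapped, and the 95% interval of the 24 h difference ran from -0.57 to 0.56.

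The subunits of eIF3 had lower values at 24 h, with 6 h differences within the spread between replicates. EIF3D, a cap-contacting subunit, read 7.39, 7.48 and 7.40 before the dose, 7.26, 7.81 and 7.62 at 6 h and 6.75, 6.95 and 7.08 at 24 h. All 24 h values lay below all others. The difference was -0.50 ± 0.26 at 24 h against before the dose (adjusted p = 0.419) and -0.64 ± 0.26 against 6 h (adjusted p = 0.192). Tested probes of like brightness, between the 95th and 99th percentile of signal, had medians of -0.27 and -0.48 in these comparisons. EIF3B, a scaffold subunit of the same complex, read 4.44, 4.52 and 4.57 before the dose, 4.16, 4.84 and 4.31 at 6 h and 3.79, 4.003 and 3.62 at 24 h. Again the 24 h group did not overlap either earlier group. Its differences were -0.70 ± 0.27 at 24 h against before the dose (adjusted p = 0.311) and -0.63 ± 0.27 against 6 h (adjusted p = 0.215), and at 24 h 19% of all tested probes lay apart downward in this way from before the dose. With spike-in centring the 24 h differences of EIF3D and EIF3B from before the dose were 0.51 and 0.30. That is below the median of 0.99 that all probes take under that scaling.

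Factors that act late in initiation are EIF5 and EIF5B, and none of their probes passed. EIF5, which triggers GTP hydrolysis by eIF2 at the start codon, read 5.53, 4.71 and 5.02 before the dose, 4.03, 4.64 and 4.28 at 6 h and 4.88, 4.61 and 5.18 at 24 h. Every 6 h value lay below every value before the dose, and 24 h overlapped both. The 6 h difference was -0.77 ± 0.31 (adjusted p = 0.162). EIF5B, the GTPase of subunit joining, had 3 tested probes whose patterns differed. The probe with the widest match, 62% of human eIF5B, read 0.38, -0.33 and 0.035 before the dose, -1.23, -0.53 and -0.83 at 6 h and -0.011, -0.15 and 0.42 at 24 h. It lay lowest at 6 h with no overlap with the other times, at -0.90 ± 0.31 against before the dose (adjusted p = 0.123) and 0.95 ± 0.31 for 24 h against 6 h (adjusted p = 0.136). Probe A_72_P117786, matched to the human protein by its older name IF2, read 3.50, 4.07 and 4.04 before the dose, 3.59, 4.03 and 3.49 at 6 h and 3.16, 3.50 and 3.24 at 24 h. Its differences were -0.17 at 6 h and -0.57 ± 0.28 at 24 h (adjusted p = 0.397). The remaining probe gave -0.05 and 0.01.

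The eIF2 complex, which brings the initiator tRNA, was covered by weaker names. Its gamma subunit, the GTPase, was read by 1 tested probe at -1.12, -1.74 and -1.78 before the dose, -2.63, -1.71 and -2.86 at 6 h and -2.36, -2.26 and -1.33 at 24 h. Replicate 2 at 6 h overlapped the values before the dose, and the difference was -0.85 ± 0.40 (adjusted p = 0.207). Matches of the beta subunit to a yeast and a fly protein, each over 5% of it, gave -1.07 ± 0.46 and -0.37 ± 0.36 at 6 h (adjusted p = 0.177 and 0.537).

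Genes named eIF2C are Argonautes, which carry small RNAs in silencing and do not act in initiation despite the old name. EIF2C3 read 2.12, 2.00 and 1.93 before the dose, 1.45, 0.98 and 0.92 at 6 h and 1.44, 1.07 and 1.496 at 24 h. Both later times lay below all values before the dose. The differences were -0.90 ± 0.27 at 6 h (adjusted p = 0.096) and -0.68 ± 0.27 at 24 h (adjusted p = 0.318). A probe matched to a rabbit eIF2C gave 0.21 and 0.03.

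At each time the largest initiation differences from before the dose belong to probes with the least secure names. The bacterial IF-2 match, resting on 3% of a Campylobacter protein, read 1.21, 1.32 and 0.23 before the dose, -0.19, -0.20 and -1.32 at 6 h and -0.21, -0.42 and -0.65 at 24 h. Both later times lay apart below, at -1.49 ± 0.40 for 6 h (adjusted p = 0.0827) and -1.35 ± 0.40 for 24 h (adjusted p = 0.243), and without replicate 2 of the 6 h group the 6 h difference was -1.67 with adjusted p = 0.044. The archaeal eIF6 match read 1.91, 2.70 and 1.83 before the dose, 2.30, 1.60 and 1.71 at 6 h and 0.59, 1.16 and 0.21 at 24 h. It was -1.49 ± 0.36 at 24 h against before the dose (adjusted p = 0.217) and -1.22 ± 0.36 against 6 h (adjusted p = 0.121), with the 24 h group apart from both. A fluke match of eIF5A gave 0.33 and 0.63, with overlapping groups. Which pig transcripts these strands read is not known from the files.

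Elongation was read almost wholly through EEF1A1, and none of its 8 probes passed. The probe with the strongest signal read 10.17, 9.51 and 9.97 before the dose, 9.06, 9.59 and 9.36 at 6 h and 9.18, 9.33 and 9.69 at 24 h. Values before the dose were the highest on average, and 1 array of each later time reached into their range. The differences were -0.55 ± 0.29 at 6 h (adjusted p = 0.258, 95% interval -1.19 to 0.09) and -0.49 ± 0.29 at 24 h (adjusted p = 0.479). This probe is among the brightest 1%, whose medians were -0.051 at 6 h and -0.65 at 24 h. The next 2 probes by signal both gave -0.45 at 6 h and -0.33 at 24 h. The other 5 gave from -0.26 to -0.092 at 6 h and from -0.11 to 0.13 at 24 h, among them the 3 tiling strands, at -0.10, -0.12 and -0.092 for 6 h.

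All 8 probes followed the same arrays. Replicate 1 at 6 h was the lowest array of its group for each, replicate 2 at 6 h the highest, and replicate 2 the lowest before the dose. For example, the tiling strand A_72_P092941 read 6.25, 5.30 and 5.84 before the dose, 5.25, 6.28 and 5.503 at 6 h and 5.84, 5.56 and 6.29 at 24 h. For this strand the spread within a group was about as wide as the span over all 9 arrays, with SD of 0.47, 0.54 and 0.37 at the 3 times in turn. The strongest probe had SD of 0.34, 0.27 and 0.26, and A_72_P321073 had 0.28, 0.50 and 0.05. All 24 h values of A_72_P321073 lay below those before the dose, where 19% of all tested probes lay apart downward. Without replicate 2 of the 6 h group all 8 differences at 6 h lay between -0.72 and -0.38, with adjusted p of 0.0952 or more. The direction at 24 h depends on the scaling: quantile normalization gave 0.29 for the strongest probe, the deposited series-wide values 0.22 and spike-in centring 0.52, in place of -0.49.

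Of the other elongation probes, a newt eEF1A match read 0.68, 2.32 and 1.77 before the dose, 2.38, 1.97 and 1.13 at 6 h and 2.78, 2.62 and 0.10 at 24 h, and its SE of 0.69 left both differences of 0.24 unresolved. A fungal match gave -0.12 ± 0.32 at 6 h and -0.47 ± 0.32 at 24 h (adjusted p = 0.528). It read -1.12, -0.76 and -0.95 before the dose, -0.94, -1.69 and -0.56 at 6 h and -1.58, -1.41 and -1.26 at 24 h, with no overlap between 24 h and before the dose. No member names elongation factor 2, and the bacterial EF-Tu and SelB matches were not well above background on any of the 9 arrays.

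A second elongation gene, EEF1G, is named only in the array's gene symbol column and so falls outside the wording. It encodes a subunit of the exchange factor that reloads eEF1A with GTP, and its 4 probes were looked up after the values of the members were known. They gave 6 h differences from -0.51 to -0.45 and 24 h differences from -0.96 to -0.36. All 4 are bright, at levels like those of EEF1A1 probes above the 95th percentile of signal. Tested probes between the 95th and 99th percentile had medians of 0.17 at 6 h and -0.27 at 24 h. The brightest 1% had -0.051 and -0.65. Probe A_72_P402748 read 7.97, 8.005 and 7.95 at 24 h, against 8.43, 8.88 and 8.60 before the dose, a difference of -0.66 ± 0.24 (adjusted p = 0.3). The strongest EEF1G probe was -0.96 ± 0.29 at 24 h (adjusted p = 0.243), which also did not pass.

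Among tRNA-charging enzymes, synthetases with vertebrate names varied in direction. Threonyl-tRNA synthetase, read by the strand printed above, had -0.51, -0.36 and -0.86 before the dose, -0.0038, 0.09 and 0.30 at 6 h and -0.25, -0.22 and -0.45 at 24 h. All 6 h values lay above all others, and it was the 1 member apart upward at 6 h, where 16% of all tested probes were. The difference was 0.71 ± 0.26 (adjusted p = 0.135), and 0.27 ± 0.26 at 24 h. Alanyl-tRNA synthetase read 2.98, 3.21 and 3.44 before the dose, 3.12, 3.77 and 3.48 at 6 h and 2.98, 3.38 and 3.43 at 24 h, so the groups overlapped, at 0.25 ± 0.28 and 0.05 ± 0.28. Asparaginyl-tRNA synthetase read 3.99, 3.35 and 3.97 before the dose, 3.21, 3.72 and 3.11 at 6 h and 3.75, 3.61 and 4.16 at 24 h. Replicate 2 again ran against the rest at both early times, and the differences were -0.42 ± 0.31 and 0.07 ± 0.31.

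A further 3 synthetase names, valyl-tRNA synthetase 2-like, arginyl-tRNA synthetase-like and the histidyl-tRNA synthetase homolog, are known in human as mitochondrial enzymes, which charge tRNAs for the proteins encoded in mitochondrial DNA. The valyl probe read 3.06, 3.27 and 3.26 before the dose, 2.37, 3.03 and 2.27 at 6 h and 2.26, 2.62 and 2.53 at 24 h. Both later times lay below every value before the dose, at -0.64 ± 0.28 (adjusted p = 0.188) and -0.73 ± 0.28 (adjusted p = 0.316). The histidyl homolog read 1.43, 0.57 and 1.63 before the dose, 0.72, 1.05 and 0.58 at 6 h and 1.48, 1.29 and 1.88 at 24 h. Its 24 h values lay above all 6 h values, and it gave -0.43 at 6 h, 0.34 at 24 h and 0.77 ± 0.33 for 24 h against 6 h (adjusted p = 0.217). Arginyl-tRNA synthetase-like was read by a probe from a human match and a probe from a mouse match, which disagreed. The human match read -1.20, -1.45 and -1.46 before the dose, -2.11, -3.23 and -2.62 at 6 h and -1.97, -2.22 and -1.76 at 24 h. With groups apart, its 6 h difference of -1.28 ± 0.32 had the smallest adjusted p of all members at that time (0.0797). The mouse match read -2.19, -2.04 and -2.41 before the dose, -1.58, -2.11 and -1.39 at 6 h and -1.77, -1.54 and -2.21 at 24 h, a 6 h difference of 0.52 ± 0.30 (adjusted p = 0.29). Both strands were dim, well above background on 8 and 7 of the 9 arrays. The human match was well above background on only 2 of its 3 arrays at 6 h, and it entered the test through the other times. Its low values at 6 h thus lie near the background. Whether the 2 strands read 1 transcript is not known from the files.

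The remaining tRNA-charging probes carry bacterial names. A histidyl match over 4% of a cyanobacterial protein read 4.96, 5.07 and 4.85 before the dose, 4.68, 4.53 and 4.55 at 6 h and 4.31, 4.32 and 3.99 at 24 h. The 3 times did not overlap at all. Its differences were -0.38 ± 0.24 at 6 h (adjusted p = 0.348) and -0.76 ± 0.24 at 24 h (adjusted p = 0.261). A glutamyl match read -1.56, -1.44 and -1.82 before the dose, -2.68, -4.30 and -2.25 at 6 h and -1.60, -1.87 and -2.22 at 24 h, with a 6 h difference of -1.47 ± 0.46 (adjusted p = 0.105). On 2 of its 3 arrays at 6 h it was not well above background, and with normexp background correction its difference for 24 h against 6 h was -0.13 in place of 1.18. A match to a prolyl-associated region, which is not itself a synthetase, gave -0.45 ± 0.26 and -0.24 ± 0.26. With only vertebrate matches kept, a choice made after seeing the data, the tRNA-charging median was -0.42 at 6 h and 0.073 at 24 h.

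The single regulator is EIF2AK3, also called PERK, the kinase that slows initiation by phosphorylating eIF2α when proteins misfold in the endoplasmic reticulum. It read -0.58, -0.049 and -0.16 before the dose, 0.034, -0.89 and 0.093 at 6 h and -0.85, -0.81 and -1.05 at 24 h. All 24 h values lay below all values before the dose, and the difference was -0.64 ± 0.32 (adjusted p = 0.406). At 6 h it was 0.012 ± 0.32.

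Genes that work beside these factors had few named probes. From the list of 17 integrated stress response targets, 2 had a tested probe. CEBPB, a transcription factor also known as a myeloid gene, was 2.10 ± 0.50 higher at 6 h (adjusted p = 0.0773), and the endoplasmic reticulum chaperone HSPA5 was at -0.0028 ± 0.32. From the 18 genes that link mTOR to translation, 2 were tested, RPS6 at -0.52 and RPS6KB1 at -0.50 for 6 h, and -0.70 and 0.53 for 24 h. From the 10 translationally controlled and nascent-chain genes, 3 were tested, FAU, GNB2L1 and TPT1, with 24 h differences of -0.81, -0.53 and -0.53. None of these 7 passed in either comparison. The lists of termination and recycling factors, cap and tail partners and ribosome biogenesis had no named probe.

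Several transcripts are read again by probes whose description does not carry the wording, found by at least 25 shared bases or a shared accession after the members' values were known. EIF3D has 2 such probes, which share 44 and 49 bases with the member and gave -0.51 and -0.49 at 24 h, beside -0.50. EEF1A1 has 2, sharing 33 and 32 bases with members, at -0.45 and -0.49 for 6 h. The further EIF4E3 probe gave 0.70 ± 0.36 at 6 h, with 35 bases shared. For EIF3B a probe of the same accession that shares no stretch longer than 7 bases gave -0.29 at 6 h and -0.46 ± 0.29 at 24 h (adjusted p = 0.498). A probe of the same accession as the dim tryptophanyl mitochondrial member was well above background and gave -0.23 ± 0.27 and -0.40 ± 0.27. Of EIF4A2, 1 further probe gave -0.22 and 0.52, with the same low arrays as the members. Another, dimmer, gave -0.41 and 1.30 ± 0.62 (adjusted p = 0.379). This dimmer probe read -2.57, -4.01 and -2.82 before the dose, -4.97, -2.52 and -3.13 at 6 h and -1.97, -2.37 and -1.155 at 24 h. Its lowest readings lie at levels seen in the members left out as dim, so its 24 h difference is not a firm reading. EIF4E, the main cap-binding factor, is named only in the symbol column and gave -0.51 ± 0.35 at 6 h and 0.028 ± 0.35 at 24 h.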

How the data were processed

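Per the labels' protocols, RNA from blood stabilised in PAXgene tubes was isolated, made into Cy3-labelled cRNA and hybridised to 1 one-colour Agilent array per sample. The scanner files hold processed spot intensity, deposited as background-subtracted and not normalized between arrays per the file headers, which name Feature Extraction 10.5.1.1, while the submitters' processing notes name 9.5.3.1. The deposited series-wide table holds intensity that the authors normalized by a method not given in the sources used here. All columns have the same maximum and medians of 11.4, and the linear scale was read from the values, while the centring remains unknown.

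Outlier spots were dropped and spots of a probe averaged. Of 43603 probes, 7 lacked a usable spot on some array. Levels are log2 signal minus the array's 75th percentile. Probes that were well above background in every replicate of some time, 19780 in all, entered 1 limma fit (3.58.1, R 4.3.3) of all 9 arrays with group as the only term. It had 6 residual degrees of freedom and 4.61 from the prior. Calls used a Benjamini-Hochberg adjusted p under 0.05. The fit was also run on simulated data with known changes and noise independent between probes. Single arrays that move many probes together were not simulated, so that run cannot speak to them. The number of arrays, 3 per group, limits precision.

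The members and gene lists were chosen with earlier results of these data known. Values on each array are given for members with the 3 smallest p-values of a class at either time, the 2 strongest of a class and genes whose probes differ in sign, taking the probe with the highest mean per gene, and for some further members chosen after their values were seen. Equal replicate numbers were checked for pairing: correlations of same-numbered arrays' deviations from group means ran from -0.20 to 0.64, so they were not taken as pairs. Alternatives were other scalings, filters and fits, a replicate block and leaving out each array. The R package data.table (version 1.17.8) joined the files, and sequences were compared with Python 3.11.15 and pandas 2.3.3. Genome positions were not analysed here.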

Additional observations from a re-analysis of the deposited data

How the results depend on the processing

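Counts over all probes depended strongly on the setting. At 6 h against before the dose 5 probes were called, with 8 after quantile normalization and for the deposited series-wide values, 613 with spike-in centring, 620 with a replicate block, 9890 with array weights, and 0 with each of normexp, the 75th percentile taken over the probes detected on every array, no filter on dim probes, probes above background on all arrays only, trend and robust fitting, and only the arrays compared. At 24 h 0 were called, with 6 after quantile normalization and for the deposited values, 5818 with spike-in centring and 5450 with array weights, and array weights called 5772 for 24 h against 6 h. Leaving out 1 array gave 0 to 2396 calls at 6 h, 0 at 24 h and 0 to 1767 for 24 h against 6 h, with both highest counts without replicate 2 of the 6 h group. Array weights called 26, 15 and 10 of 50 members in the 3 comparisons, beside 9890, 5450 and 5772 of 19780 probes. Spike-in centring called 6 of 50 members at 24 h, all higher, beside 5818 of 19780 probes. The replicate block called 1 of 50 at 6 h (the bacterial IF-2 match, adjusted p = 0.0419), beside 620 of 19780. Without single arrays, members called ran 0 to 2, 0 to 0 and 0 to 1, beside 0 to 2396, 0 and 0 to 1767 of all probes. Array weights ran from 0.27 to 8.27, the lowest for replicate 2 at 6 h, with 0.33 for replicate 3 at 6 h and for replicate 3 at 24 h. The highest was that of replicate 3 before the dose, whose group otherwise had 0.57 and 0.42. The weighted group before the dose thus rests mostly on 1 array. Same-numbered arrays correlated by -0.15, -0.20 and 0.11 at 6 h against before the dose and by -0.074, 0.64 and 0.22 at 24 h against before the dose. For 24 h against 6 h the values were 0.54, 0.083 and 0.45. The numbers were not taken as pairs, and whether they mark pairs is not settled by these values.

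Class medians at 6 h for initiation were -0.3018 with quantile normalization, -0.3349 with median scaling, -0.2954 with the percentile over detected probes, 0.0355 with spike-in centring, -0.2977 for the deposited values, -0.0609 with no filter and -0.3113 with array weights, and ran from -0.2745 to -0.0073 without single arrays. Elongation gave -0.4636 with quantile normalization, -0.443 for the deposited values, 0.0687 with spike-in centring and -0.5288 with array weights, and -0.459 to -0.058 without single arrays. For tRNA charging the 6 h median was -0.5687 with median scaling, -0.1982 with spike-in centring, -0.0964 with no filter and -0.6666 with array weights, and -0.5883 to -0.3209 without single arrays. At 24 h initiation gave -0.0175 with the percentile over detected probes, 0.8756 with spike-in centring, 0.0818 with normexp, -0.02 for the deposited values and -0.371 with 1 probe per gene, and -0.291 to -0.0424 without single arrays. Elongation gave 0.2837 with quantile normalization, 0.2882 with normexp, 0.2865 for the deposited values, 0.9858 with spike-in centring and -0.4705 with 1 probe per gene at 24 h, and -0.2081 to -0.0088 without single arrays. For tRNA charging at 24 h the median was 0.9123 with spike-in centring, -0.362 with no filter, 0.0528 with probes above background on all arrays or 1 probe per gene and 0.0731 with only vertebrate matches, and -0.1701 to -0.0569 without single arrays. The causes were not tested.

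Spike-in centring turned 11 of 50 members at 6 h, 27 at 24 h and 18 for 24 h against 6 h, all to higher values, and every other scaling turned at most 10. Turned by spike-in centring were, among others, EIF4G3 (0.227), EIF5B A_72_P117786 (0.4303), the human-matched arginyl probe (0.3929), EIF2C3 (0.3238), EIF3B (0.2995), EEF1A1 A_72_P016236 (0.5172), the fungal EF1A match (0.533), the valyl probe (0.277), the histidyl match (0.2483) and EIF2AK3 (0.3651) at 24 h against before the dose, EIF3B (0.1487) and EIF3D (0.1408) at 24 h against 6 h, and the fungal EF1A match (0.1071) and the 3 tiling EEF1A1 strands (0.1059 to 0.1324) at 6 h. EEF1A1 at 24 h was 0.287 with quantile normalization and 0.2182 for the deposited values. Normexp gave -0.1344 for the glutamyl match at 24 h against 6 h and -0.1942 for the mouse-matched arginyl probe at 24 h. EIF2AK3 at 6 h, near 0, ran up to 0.3288 without replicate 2 at 6 h and was -0.1335 with median scaling, -0.0939 with the percentile over detected probes, and -0.1609 to -0.1316 without replicate 1 before the dose or replicates 1 or 3 at 6 h. Without replicate 2 at 6 h the fungal match was 0.1945 at 6 h. The newt match ran up to 0.6012 at 6 h without replicate 2 before the dose and 1.1081 at 24 h without replicate 3 at 24 h, and gave -0.2186 and -0.0427 at 6 h without replicate 1 before the dose or at 6 h, and -0.2288 to -0.1529 at 24 h without that array before the dose or replicates 1 or 2 at 24 h. Only 3 arrays per time limit all of these values.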
